A study of Mus musculus with 2 samples.

Results

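The genes described here are 9 that write, maintain or remove 5-methylcytosine in DNA: Dnmt1, Dnmt3a, Dnmt3b, Dnmt3l, Uhrf1, Tet1, Tet2, Tet3 and Tdg. They were chosen by name, and all 9 were found among the 22421 genes of the deposited tables, on 22 of 28430 RefSeq transcript rows. RNA was sequenced from CGR8 cells, a mouse embryonic stem cell line grown without feeder cells in serum and leukaemia inhibitory factor. One library came from cells transfected with an siRNA against Set1a, and 1 came from cells transfected with a negative siRNA, called the control siRNA library below. Both received 2 transfections within 72 hours. The study asked how SET1A, a methyltransferase of histone H3 lysine 4, affects expression genome-wide. With 1 library a group there are no replicates, no tests and no p-values, and every difference below is between these 2 libraries.

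In mammals, DNA methylation is set on unmethylated DNA by DNMT3A and DNMT3B, for which DNMT3L, a catalytically inactive relative, is a cofactor. After replication it is copied by DNMT1, which UHRF1 brings to half-methylated sites. The TET enzymes oxidise 5-methylcytosine using 2-oxoglutarate, and the glycosylase TDG cuts out the most oxidised forms. Mouse embryonic stem cells carry both arms at once, and DNMT3L and TET1 are known as genes of the pluripotent state.

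The unit is RPKM, reads scaled by transcript length and library depth, so levels of different genes can be compared within a library. Low values move in whole reads, and the size of that step gave depths of about 6421000 reads for the Set1a siRNA library and 6656000 for the control siRNA library. Read numbers below follow from these depths and are approximate. Intervals are exact 95% intervals (Clopper-Pearson for ratios, Poisson for levels) that cover counting error only. Setd1a, the targeted gene, was at 11.97 RPKM in the Set1a siRNA library and 14.2 RPKM in the control siRNA library, a ratio of 0.846 (0.746 to 0.959). Of 11786 genes whose mean over both libraries reached 1 RPKM, 15.0% had a lower fold than Setd1a. All 10 stem cell markers checked were above 1 RPKM in both libraries, with a summed level of 4320.3 RPKM in the Set1a siRNA library and 4592 RPKM in the control siRNA library. Of 9 fibroblast markers, Col1a2, Postn, Dcn and Fap were at 0 in both libraries. Col1a1 had 14 reads in the Set1a siRNA library and 3 in the control siRNA library, a ratio of 5.70 (1.35 to 26.3), and Pdgfrb had 39 reads in the Set1a siRNA library and 17 in the control siRNA library, a ratio of 2.38 (1.31 to 4.48). The summed level of the fibroblast markers was 5.42 RPKM in the Set1a siRNA library and 2.99 RPKM in the control siRNA library, and the part of other cells in the differences below was not tested. In bulk RNA, fewer cells of a type and less RNA per cell cannot be told apart.

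The DNA methylation and demethylation genes differed little between the libraries. In the Set1a siRNA library Tet1, Tdg and Dnmt1 were lower, with ratios from 0.893 to 0.902, Dnmt3l was higher, with a ratio of 1.09, and the counting intervals of Dnmt3a, Dnmt3b, Uhrf1, Tet2 and Tet3 included a ratio of 1. None of the 9 genes passed 2-fold in either direction on the scale of log2(RPKM + 1), nor 1.5-fold. The background was taken over 11786 genes whose mean over both libraries reached 1 RPKM. Of these, 1.17% passed 2-fold, with 0.764% higher and 0.407% lower, and 4.45% passed 1.5-fold, with 2.76% higher and 1.69% lower. Tet3 had a mean below 1 RPKM, and the other 8 genes passed that floor. Over those 8 genes, 2 were higher and 6 lower, with a median log2 fold of -0.07, against a median of 0.0066 and quartiles of -0.14 and 0.15 over all genes above the floor. The counting interval of the ratio excluded 1 for 4 of the 9 genes, 1 higher and 3 lower. That rule was met by 23.8% of all genes above the floor whose reads were recovered (12.3% higher and 11.5% lower). It depends on depth: among the 2402 genes with at least 500 control reads it was met by 41.9%, with 17.4% higher and 24.5% lower. Of the 7 DNA methylation genes at that depth, 4 met it. This share is near that background, and it is not a result about these genes.

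**Figure D1:**
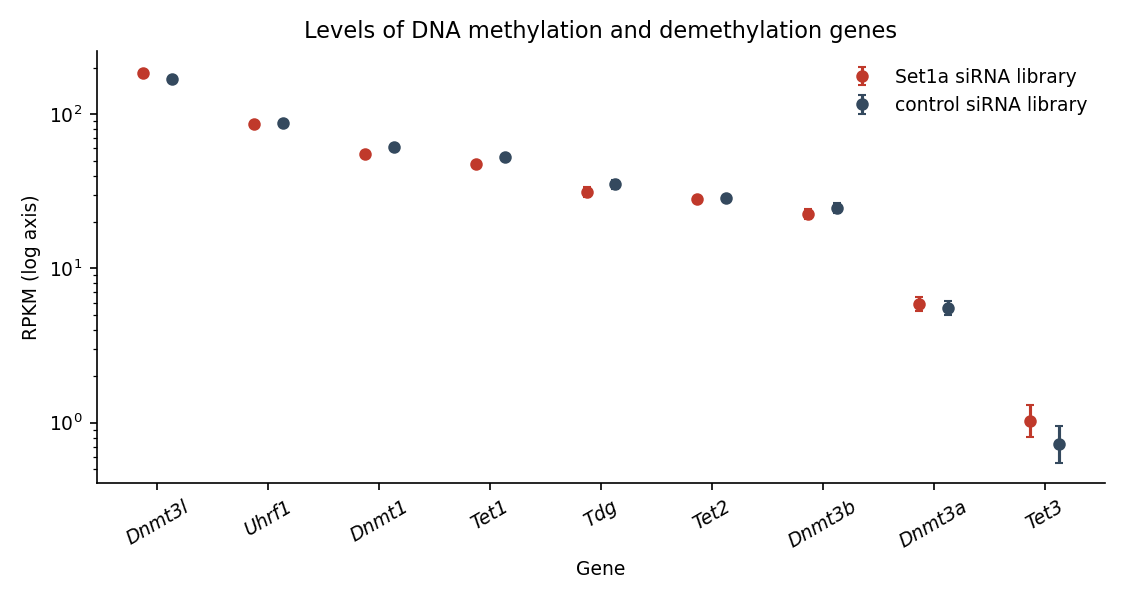
Level of each gene in RPKM on a log axis, taken from its transcript row with the most reads, with exact 95% Poisson intervals. The Set1a siRNA library is on the left of each pair and the control siRNA library on the right. The 9 genes take the same order in both libraries, with Dnmt3l highest, at 184 RPKM in the Set1a siRNA library and 168 RPKM in the control siRNA library, and Tet3 lowest, at 1.03 RPKM in the Set1a siRNA library and 0.730 RPKM in the control siRNA library.

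The 9 genes spanned a wide range of levels and stood in the same order in both libraries: Dnmt3l, Uhrf1, Dnmt1, Tet1, Tdg, Tet2, Dnmt3b, Dnmt3a and Tet3. Neighbours in this order had intervals that did not overlap, except Tdg and Tet2 in the Set1a siRNA library. The cofactor gene Dnmt3l ranked 250 among all genes in the Set1a siRNA library and 290 in the control siRNA library. Tet3 ranked 11807 in the Set1a siRNA library and 12198 in the control siRNA library. As the plot of levels shows, the span from Dnmt3l to Tet3 was far wider than the difference between libraries for any of the 9 genes.

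Dnmt1, the maintenance methyltransferase, was at 55.2 RPKM in the Set1a siRNA library and 61.3 RPKM in the control siRNA library, from 1904 and 2188 reads. The Set1a siRNA value was the lower one, with a ratio of 0.902 (0.848 to 0.960). Of all genes above the floor, 24.1% had a lower fold. Uhrf1, which recruits DNMT1 to newly replicated DNA, was at 87.0 RPKM in the Set1a siRNA library and 87.3 RPKM in the control siRNA library, a ratio of 0.997 (0.937 to 1.06). The difference was within counting error. Uhrf1 stood at 1.58 times the level of Dnmt1 in the Set1a siRNA library and 1.43 times in the control siRNA library.

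Dnmt1 had 4 transcript rows, whose ratios ran from 0.902 to 0.905. The rows of a gene share most of their exons and therefore most of their reads, so they are not separate measurements. The row NM_010066 matches a GENCODE M21 model with 4860 coding nucleotides, the full-length somatic protein. The row NM_001199432 matches a model that begins farther upstream and has 4503 coding nucleotides; a form of mouse DNMT1 that lacks the amino-terminal end is known from oocytes. The full-length row NM_001199431 exceeded the row NM_001199432 by 30 reads in the Set1a siRNA library and 37 reads in the control siRNA library. These differences are small beside the 1904 and 2187 reads of the full-length row. The row NM_001199433 was the lowest, at 49.8 RPKM in the Set1a siRNA library and 55.1 RPKM in the control siRNA library; 760 nucleotides of its model are in no other Dnmt1 row.

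Uhrf1 also had 4 rows, which ran from 87.0 to 87.2 RPKM in the Set1a siRNA library and from 87.1 to 87.5 RPKM in the control siRNA library. The 4 models share 3321 nucleotides and differ mainly at the 5′ end, so the rows count nearly the same reads. A near-identical transcript, Gm5648, matches Uhrf1 at 98.3% over 1590 nucleotides. Gm5648 was not analysed here, and reads could be shared between them.

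Dnmt3a, a de novo methyltransferase, was the lowest of the methyltransferase genes. Its row of the longer transcript, NM_007872, was at 5.89 RPKM in the Set1a siRNA library and 5.57 RPKM in the control siRNA library, from 366 and 359 reads, a ratio of 1.06 (0.911 to 1.23). Its row of the shorter transcript, NM_153743, was at 7.29 RPKM in the Set1a siRNA library and 7.09 RPKM in the control siRNA library, a ratio of 1.03 (0.861 to 1.23). Neither row differed between libraries beyond counting error. The shorter transcript begins at an internal start and lacks 657 coding nucleotides at the amino-terminal end; its product is known as DNMT3A2, the form that prevails in mouse embryonic stem cells.

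The longer row held 112 reads more than the shorter one in the Set1a siRNA library and 103 more in the control siRNA library. The longer model has 4378 nucleotides that the shorter one lacks, so this excess came to 25.6 reads per kilobase in the Set1a siRNA library and 23.5 reads per kilobase in the control siRNA library. The shorter row as a whole held 46.8 reads per kilobase in the Set1a siRNA library and 47.2 in the control siRNA library. Of the 4378 nucleotides, 889 lie 5′ of the shorter model's start, and reads on the rest do not tell the 2 starts apart, so these densities do not give the balance of the 2 forms. The excess understates that coverage by any reads on the 117 nucleotides found only in the shorter model. The excess also assumes that each row counts every read on its exons and that the model lengths hold.

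The windows around the 2 starts are shown because the rows differ there. Each runs from 250 bases before to 50 bases after an annotated start, in RefSeq on GRCm38.p6, on the plus strand, and is written 5′ to 3′ with every CG in capitals. The first lies at chr12:3806730-3807029, with its start 50 bases from that of the longer row's model. The second lies at chr12:3891494-3891793, with its start at that of the shorter row's model.
Dnmt3a, upstream start: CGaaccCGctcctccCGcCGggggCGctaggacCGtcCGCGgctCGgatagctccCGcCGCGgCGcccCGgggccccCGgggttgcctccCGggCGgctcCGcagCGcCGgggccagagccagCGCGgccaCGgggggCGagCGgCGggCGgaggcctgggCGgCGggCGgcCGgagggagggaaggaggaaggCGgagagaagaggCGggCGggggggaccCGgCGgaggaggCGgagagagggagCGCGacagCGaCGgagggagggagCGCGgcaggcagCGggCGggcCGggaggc
Dnmt3a, internal start: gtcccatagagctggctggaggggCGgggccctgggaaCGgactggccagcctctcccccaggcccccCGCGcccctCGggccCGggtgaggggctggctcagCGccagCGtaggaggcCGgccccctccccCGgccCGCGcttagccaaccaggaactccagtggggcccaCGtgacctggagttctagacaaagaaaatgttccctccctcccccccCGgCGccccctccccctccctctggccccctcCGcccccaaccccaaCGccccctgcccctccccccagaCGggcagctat
The upstream window holds 46 CG, a number reached by 1.65% of 32851 such windows. The internal window holds 18 CG, a number reached by 29.7% of them. CG reads the same on both strands, and these counts describe the windows and no more.

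Dnmt3b, the de novo methyltransferase that is abundant in the early embryo, was at 22.5 RPKM in the Set1a siRNA library and 24.7 RPKM in the control siRNA library, from 625 and 711 reads. The ratio was 0.911 (0.817 to 1.02), and its interval included 1. Its 5 rows, NM_001003960, NM_001003961, NM_001003963, NM_001122997 and NM_010068, had ratios from 0.911 to 0.916. Their models share 3378 nucleotides and differ by small internal exons and the length of the 3′ end. Levels of the 5 rows ran from 22.4 to 23.1 RPKM in the Set1a siRNA library and from 24.5 to 25.2 RPKM in the control siRNA library. At most 3 nucleotides of a model are in no other row, so the rows count nearly the same reads and do not separate the splice forms. Dnmt3c, a rodent duplicate of Dnmt3b, matches it at 93.9% over 1434 nucleotides and was not analysed here. Dnmt3b was 3.83 times the level of Dnmt3a in the Set1a siRNA library and 4.44 times in the control siRNA library.

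Dnmt3l, the cofactor of the de novo enzymes, was the most abundant of the 9 genes and the one with a ratio above 1 and an interval that excluded 1. Its row NM_019448 was at 184 RPKM in the Set1a siRNA library and 168 RPKM in the control siRNA library, from 1981 and 1877 reads, a ratio of 1.09 (1.03 to 1.17). Of all genes above the floor, 71.5% had a lower fold. The row NM_001081695 was at 165 RPKM in the Set1a siRNA library and 151 RPKM in the control siRNA library, a ratio of 1.10 (1.03 to 1.17). The ratio of Dnmt3b was below 1, but its interval included 1. Dnmt3l stood at 8.17 times the level of Dnmt3b in the Set1a siRNA library and 6.80 times in the control siRNA library.

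The 2 rows of Dnmt3l differ in where they begin. In the mouse, Dnmt3l is known to be transcribed from separate starts in different germ cells and in embryonic stem cells. The model of NM_019448 has 70 nucleotides that are not in that of NM_001081695, and the model of NM_001081695, which begins upstream, has 216 of its own. The row with the internal start still held 48 reads more in the Set1a siRNA library and 50 reads more in the control siRNA library. If each row counts every read on its exons, and if the model lengths hold, at least these reads lay on the 70 nucleotides. Those lengths come from another build than the deposited values, and the excess is small beside the 1981 and 1877 reads of the row. Reads at both starts cannot be separated further from these rows.

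The windows around the 2 starts of Dnmt3l are shown for the same reason, in the same form. Both are on the plus strand of GRCm38.p6, at chr10:78042037-78042336 for the upstream start and chr10:78049592-78049891 for the internal one.
Dnmt3l, upstream start: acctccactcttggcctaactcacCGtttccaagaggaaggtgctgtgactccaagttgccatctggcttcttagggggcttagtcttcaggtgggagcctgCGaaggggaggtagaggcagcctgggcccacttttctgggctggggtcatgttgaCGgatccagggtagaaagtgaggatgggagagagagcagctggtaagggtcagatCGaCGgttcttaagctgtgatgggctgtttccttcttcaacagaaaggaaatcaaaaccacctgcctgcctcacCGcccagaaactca
Dnmt3l, internal start: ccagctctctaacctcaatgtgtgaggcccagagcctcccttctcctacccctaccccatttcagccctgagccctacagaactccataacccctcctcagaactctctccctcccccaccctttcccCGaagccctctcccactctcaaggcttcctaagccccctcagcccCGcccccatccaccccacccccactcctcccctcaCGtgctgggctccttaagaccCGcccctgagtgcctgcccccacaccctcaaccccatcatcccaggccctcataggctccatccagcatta
They hold 6 and 4 CG, while the median over all windows is 7. The 9 genes have 16 windows in this table, from 2 CG at the upstream start of Dnmt1 to 57 CG at Tet2. Taking the richest window of each gene, Dnmt3l had 6 CG and the other 8 genes had at least 17. Of 9297 genes above the floor with a window, 70.2% had at least 17 CG in their richest window and 92.1% had more than 6. By this measure Dnmt3l was the lowest of the 9 genes, and whether this bears on its level was not tested. Single windows of other genes also held few CG, with 12 at a start of Dnmt1 and at a start of Uhrf1. The start of the Tet1 window, which holds 17 CG, lies 7310 nucleotides from that of its row's model.

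Tet1, the main TET enzyme of mouse embryonic stem cells, had the most reads of the 9 genes. It was at 47.4 RPKM in the Set1a siRNA library and 53.1 RPKM in the control siRNA library, from 4260 and 4943 reads on the row NM_027384. The ratio was 0.893 (0.857 to 0.931), and 22.3% of genes above the floor had a lower fold. With a trend in GC content and transcript length removed, the log2 fold was -0.09 in place of -0.16. Tet2, which is co-expressed with Tet1 in these cells, was at 28.2 RPKM in the Set1a siRNA library and 28.4 RPKM in the control siRNA library, a ratio of 0.990 (0.925 to 1.06). Tet2 differed by less than counting error.

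Tet3, known for its role in the oocyte and zygote and in neurons, was the least abundant of the 9 genes. It was at 1.03 RPKM in the Set1a siRNA library and 0.730 RPKM in the control siRNA library, from 72 and 53 reads. The ratio of 1.41 was the farthest from 1 among the 9 genes, but its interval, 0.974 to 2.05, included 1. A difference of this size was therefore not detectable at this depth. Tet1, Tet2 and Tet3 each had 1 row. Tet1 made up 61.9% of the summed RPKM of the TET genes in the Set1a siRNA library and 64.5% in the control siRNA library. Tet2 made up 36.7% in the Set1a siRNA library and 34.6% in the control siRNA library. Tet3 made up 1.34% in the Set1a siRNA library and 0.887% in the control siRNA library.

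Tdg, the thymine DNA glycosylase that follows the TET enzymes, was at 31.5 RPKM in the Set1a siRNA library and 35.2 RPKM in the control siRNA library, from 708 and 821 reads on the row NM_172552. The ratio was 0.895 (0.807 to 0.990). The other row, NM_011561, was at 32.3 RPKM in the Set1a siRNA library and 36.0 RPKM in the control siRNA library. Its ratio was 0.897, but its interval, 0.803 to 1.0001, just included 1, so the call of Tdg depends on the row. The value of Tdg is also uncertain because near-identical copies exist: Tdg-ps matches it at 98.7% over 2968 nucleotides, Gm5597 at 99.3% over 1193 and Gm9855 at 99.2% over 1194. These copies were not analysed here, and how reads that match several places were counted is not known. An antisense gene, Glt8d2, shares 367 exonic nucleotides with Tdg and was at 0 RPKM in the Set1a siRNA library and 0.140 RPKM in the control siRNA library.

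**Figure D2:**
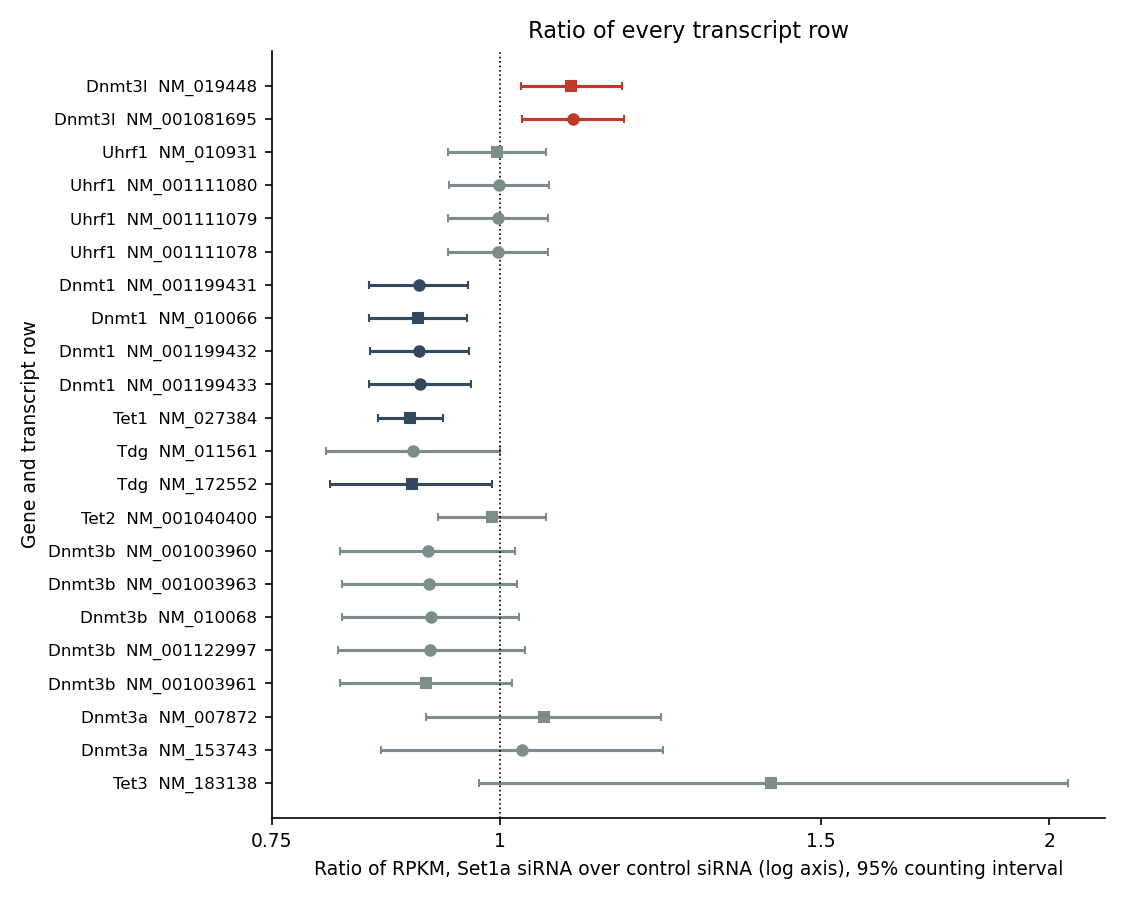
Ratio of RPKM, Set1a siRNA over control siRNA, on a log axis for each of the 22 transcript rows, with 95% counting intervals. Squares mark the row with the most reads of each gene, and grey marks intervals that include 1. Rows of Dnmt1 lie between 0.902 and 0.905 and rows of Dnmt3l at 1.09 and 1.10, while the Tet3 interval is the widest, at 0.974 to 2.05.

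In sum of levels, the catalytic methyltransferase genes Dnmt1, Dnmt3a and Dnmt3b came to 83.7 RPKM in the Set1a siRNA library and 91.6 RPKM in the control siRNA library. The TET genes came to 76.6 RPKM in the Set1a siRNA library and 82.3 RPKM in the control siRNA library. The ratio of methyltransferase to TET RPKM was therefore 1.09 in the Set1a siRNA library and 1.11 in the control siRNA library, so both sums were lower to a like degree. These sums use 1 row per gene; adding all rows of a gene counts shared reads several times and gives 4.47 in the Set1a siRNA library and 4.57 in the control siRNA library. Dnmt1 made up 66.0% of the methyltransferase sum in the Set1a siRNA library and 66.9% in the control siRNA library.

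**Figure D3:**
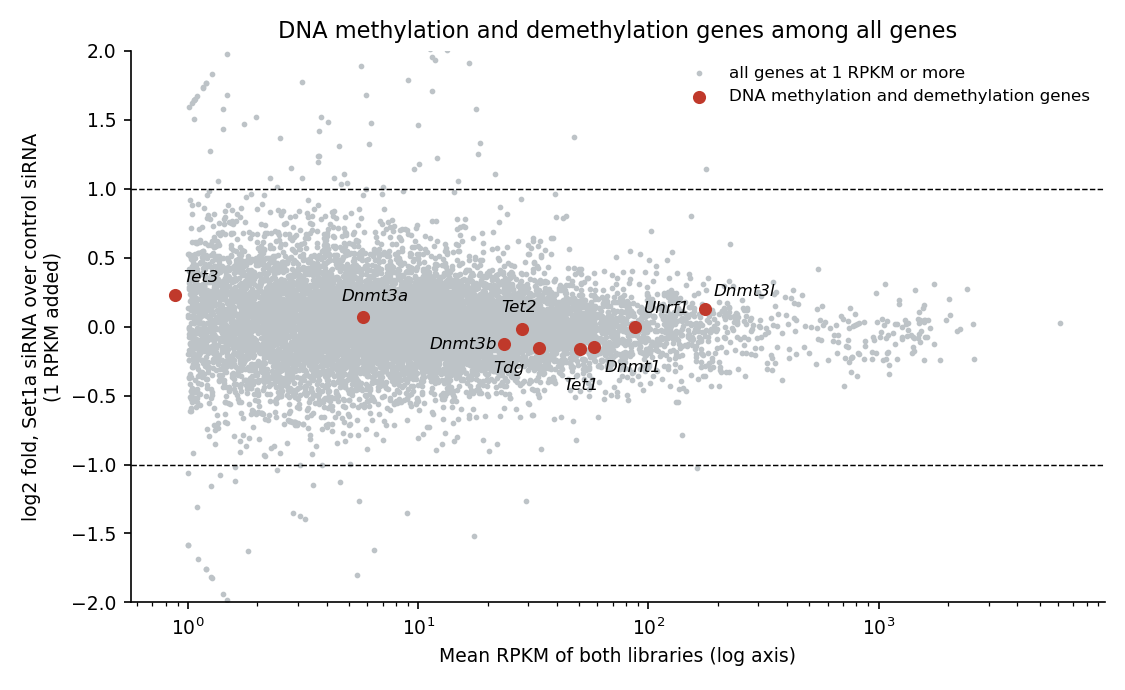
Log2 fold, Set1a siRNA over control siRNA with 1 RPKM added to each, against the mean RPKM on a log axis, for all genes at 1 RPKM or more (grey) and the 9 genes (red). Dashed lines mark 2-fold, and 49 genes lie beyond the vertical axis. The 9 genes lie inside the band of all genes, from -0.16 for Tet1 to 0.23 for Tet3.

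Other genes of DNA methylation were compared by lists. Of 8 genes of maintenance and related methyltransferases, 3 were higher and 5 lower, with a median log2 fold of -0.02, and none passed 2-fold. Uhrf2, a paralog of Uhrf1, had a ratio of 1.19 (1.02 to 1.38), and Rad18 had 1.14 (0.954 to 1.38). The lowest were Cdca7, a partner of the remodeller HELLS, with 0.879 (0.794 to 0.975), and Usp7, a deubiquitinase that binds DNMT1 and UHRF1, with 0.948 (0.888 to 1.01). Of 12 recruiters and guards of DNA methylation, 5 were higher and 7 lower, with a median of -0.0069. Nsd2, a methyltransferase of histone H3 lysine 36, had a ratio of 1.54 (1.23 to 1.92) and Ehmt1, of histone H3 lysine 9, had 1.18 (1.04 to 1.34). Smchd1 had 0.898 (0.789 to 1.02) and Nsd1 had 0.907 (0.852 to 0.966).

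Of 9 regulators of these genes in the naive state, 4 were higher and 5 lower, with a median of -0.0080. Prdm1 had a ratio of 0.705 (0.564 to 0.873) and Tfap2c had 0.815 (0.666 to 0.997), both transcription factors of the germ line. Lin28a, an RNA-binding protein gene, had 1.10 (1.03 to 1.17). Zscan4c, of the 2-cell-like state, was the 1 gene of these lists past 2-fold on the scale of log2(RPKM + 1). Its level was 32.2 RPKM in the Set1a siRNA library and 1.98 RPKM in the control siRNA library. It has near-identical copies, so its own value is uncertain.

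Proteins that read CpG sites formed 2 lists. Of 9 methyl-CpG binding proteins above the floor, 7 were higher and 2 lower, with a median log2 fold of 0.09 that ranged between 0.04 and 0.16 over the other settings. The counting interval lay above 1 for 2 of the 9, and for 12.3% of all genes above the floor whose reads were recovered. Mbd1 had a ratio of 1.44 (1.07 to 1.92) and Mbd4, a glycosylase, had 1.21 (1.01 to 1.45), while Zbtb33 had 0.858 (0.666 to 1.10) and Mbd2 had 0.865 (0.671 to 1.10). The other list was of CXXC proteins, which bind unmethylated CpG. It leaves out Dnmt1 and Tet1, which were lower, and Mbd1, which was higher. Of its 5 measured genes, 4 were higher and 1 lower, with a median of 0.09. After a trend in GC content and length was removed, the median was 0.013. The interval lay above 1 for 2 of the 5, and for 12.3% of all genes above the floor whose reads were recovered. That share was 17.4% among genes with at least 500 control reads. Not all 5 genes reached that depth, the lowest having 213 control reads. Kdm2b, a histone demethylase that brings a Polycomb complex to CpG islands, was at 22.3 RPKM in the Set1a siRNA library and 15.7 RPKM in the control siRNA library, a ratio of 1.42 (1.27 to 1.59). Fbxl19 had 0.961 (0.852 to 1.08). Over all 11786 genes, 6033 had a fold above 0 and 5753 a fold below it.

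A list of 12 base excision repair genes other than Tdg held glycosylases for other damaged bases and enzymes that fill the gap. Of these, 4 were higher and 8 lower, with a median of -0.09. No counting interval of the 12 excluded 1, while 23.8% of all genes above the floor whose reads were recovered met that rule. Smug1 had a ratio of 1.16 (0.878 to 1.54), Lig3 had 1.07 (0.923 to 1.24) and Neil1 had 0.691 (0.413 to 1.14). Of 6 measured genes of the deaminase and GADD45 list, 3 were higher and 3 lower, with a median of 0.07 that ranged between -0.05 and 0.20 over the other settings. Gadd45b, a stress-inducible gene, had the highest ratio, 1.86 (1.13 to 3.27), from 44 Set1a siRNA reads and 24 control siRNA reads, and Apobec2 had 1.19 (0.861 to 1.67). Apobec1 had 0.802 (0.526 to 1.23) and Gadd45g had 0.829 (0.284 to 2.33).

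Genes that supply the cofactors of these enzymes differed in both directions. In the methyl donor cycle, 5 of 13 measured genes were higher and 8 lower, with a median of -0.02. Ahcyl1 had a ratio of 1.24 (1.10 to 1.40) and Mat2b, a subunit of methionine adenosyltransferase, had 1.09 (0.950 to 1.25). Shmt2, a mitochondrial serine hydroxymethyltransferase, had 0.819 (0.761 to 0.881) and Mthfd1l, of the mitochondrial folate pathway, had 0.836 (0.751 to 0.929). Another list held 13 genes that supply or remove 2-oxoglutarate, the cosubstrate of the TET enzymes, or act near it in metabolism, such as Sdha and Fh1. Of these, 4 were higher and 9 lower, with a median of -0.04. Gpt2, an alanine transaminase that makes 2-oxoglutarate, was at 12.8 RPKM in the Set1a siRNA library and 20.6 RPKM in the control siRNA library, a ratio of 0.624 (0.539 to 0.722). Psat1, a transaminase of serine synthesis, had 0.684 (0.644 to 0.726). Idh1, for isocitrate dehydrogenase, had 1.20 (1.07 to 1.35) and Ogdh, for a subunit of the 2-oxoglutarate dehydrogenase complex, had 1.10 (0.993 to 1.23).

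Germline genes whose promoters are methylated outside the germ line showed no common direction. Of 11 above the floor, 6 were higher and 5 lower, with a median log2 fold of 0.03. With a floor of 5 RPKM the median was -0.26, but most of the 11 genes then dropped out, among them Stk31, Dazl and Hormad1. Stk31 had a ratio of 1.60 (1.09 to 2.37) and Dazl had 1.36 (0.970 to 1.90), while Tuba3a had 0.726 (0.596 to 0.883) and Hormad1 had 0.726 (0.339 to 1.51). Tuba3a has a near-identical paralog, so its value is uncertain. Of 5 measured markers of the primed epiblast, a state in which de novo methyltransferases are high, 1 was higher and 4 lower, with a median of -0.18, or -0.02 without a floor and -0.29 after a trend in GC content and length was removed. Cer1 was the lowest, with 0.432 (0.184 to 0.937) from 10 Set1a siRNA reads and 24 control siRNA reads, and Lef1 the highest, with 1.12 (0.689 to 1.85). The 10 stem cell markers were split evenly, with a median of 0.0023. Their ratios ran from 0.844 (0.817 to 0.872) for Dppa5a and 0.875 (0.835 to 0.917) for Sox2 to 1.09 (1.06 to 1.13) for Tdgf1 and 1.15 (1.05 to 1.25) for Utf1. Thy1, the 1 fibroblast marker above the floor, had 1.59 (0.967 to 2.66).

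**Figure D4:**
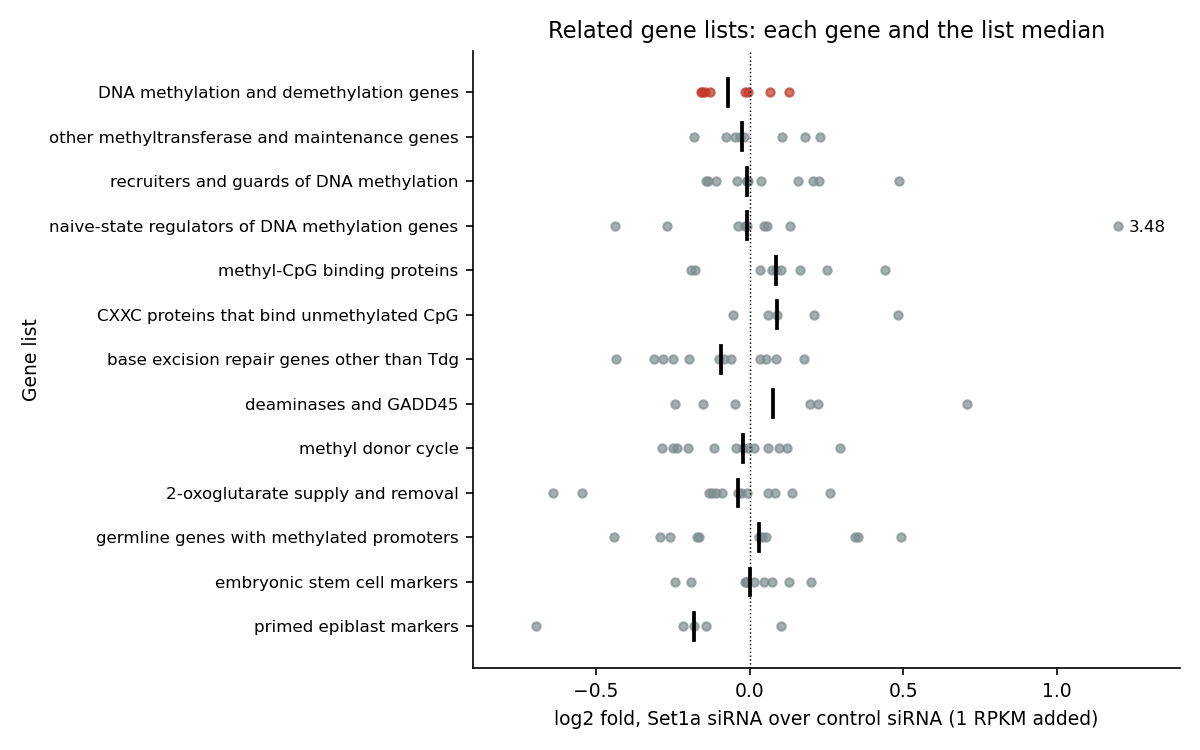
Log2 fold, Set1a siRNA over control siRNA with 1 RPKM added to each, of every gene above the floor (points) and the list median (bars), for the 9 genes (red, of which 8 are above the floor) and 12 related lists. Zscan4c, at 3.48, is drawn at the right edge with its value. All list medians lie between -0.18 and 0.09.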

How the data were processed

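The 2 libraries were grouped by their transfection label. The authors deposited 1 value per RefSeq transcript, without a header; that the unit is RPKM was inferred from the deposited values, which move in whole steps when multiplied by transcript length. The build was mm9, per the submitters' processing notes, which name SAMtools 0.1.16, TopHat2 2.0.12, TopHat and CASAVA without their roles. Which program counted reads, and how it treated strand and multiple matches, is not given in the sources used here.

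Symbols came from a GRCm38.p6 RefSeq table, or GENCODE M21 where that had none (27957 of 28430 transcripts in all). Lengths and exon models came from GENCODE M21, another build than mm9, so reads are approximate. Depth was recovered from the step of 1 read: of transcripts with 1 to 5 reads, 73.8% (Set1a siRNA) and 74.8% (control siRNA) lay within 0.1 of a whole read, against 20% at random. Value times length summed over all rows made about 100.4% of each depth and over 1 row per gene 80.2% and 80.3%, so the depths may count shared reads more than once.

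Each gene was represented by its row with the most reads. Folds are on the log2(RPKM + 1) scale, which understates the change of low genes, and are given over 11786 genes whose mean RPKM reached 1. Ratios are of deposited RPKM. The genes and lists were chosen with earlier results of these data known. All members were named, and from each other list the 2 highest and 2 lowest folds (1 and 1 with fewer than 6 measured genes); 1 gene that this rule names is not reported here. Of 142 list entries, 141 were found. Near-identical copies were searched for among GENCODE transcripts by BLAST 2.17.0, at 90% identity over at least 200 nucleotides. Scripts ran in Python 3.11.15 with SciPy 1.17.1 and were tested on simulated counts. Pseudocount, floor, scaling, row choice, a GC and length trend and the fold rule were varied.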

Additional observations from a re-analysis of the deposited data

How the results depend on the processing

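None of the 9 genes passed 2-fold in any of the 9 other settings of pseudocount, floor, scaling, row choice and GC and length trend, nor with a 1.5-fold rule. Of these, 8 kept the direction of their log2 fold in all 9 settings. Tet2 was at 0.02 with the GC and length trend removed, and its counting interval includes 1. With that trend removed, Tet1 was at -0.09. The median over the genes ranged between -0.014 without a floor, which adds Tet3, and -0.08 with median-of-ratios scaling. By a counting interval that excludes 1, a rule added after seeing the data, 1 member was higher and 3 lower, and 1440 genes in all were higher and 1340 lower.

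Over all genes, 90 were higher and 48 lower by 2-fold or more, and these counts were 177 and 89 with a pseudocount of 0.1 RPKM, 37 and 10 with 5 RPKM, and 34 and 8 with a floor of 5 RPKM. A 1.5-fold rule gave 325 and 199, and without a floor 131 were higher and 77 lower. The summed methyltransferase over TET RPKM, 1.09 in the Set1a siRNA library and 1.11 in the control siRNA library, was 4.47 in the Set1a siRNA library and 4.57 in the control siRNA library when all rows of a gene were added, since rows share reads. Of 12 related lists, 6 kept the sign of their median in every setting that gave one (the primed epiblast list had none at a floor of 5 RPKM) and 6, with medians of up to 0.07 in size, did not. No paired analysis was possible because there was 1 library of each kind. What moved the other values was not tested. Low depth limits Tet3 most, at 72 Set1a siRNA reads and 53 control siRNA reads.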

Other observations

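Of the germline genes with methylated promoters, 10 had a mean below 1 RPKM and entered only the setting without a floor. Of these, 7 were higher in the Set1a siRNA library, 2 were lower and 1 was listed at 0 in both, with 75 reads in the Set1a siRNA library and 51 reads in the control siRNA library in sum. Tex11, an X-linked meiosis gene chosen after its value was seen, was at 1.01 RPKM in the Set1a siRNA library and 0.324 RPKM in the control siRNA library, a ratio of 3.11 (1.27 to 8.66) from 21 and 7 reads. Of all 5252 genes below the floor with any reads, 62.5% were higher in the Set1a siRNA library and 37.5% were lower, with 32766 reads in the Set1a siRNA library and 29219 reads in the control siRNA library in sum. The germline counts are few, and no test was made.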
